A study of Carassius gibelio with 4 samples.

Results

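The liver transcriptome of strain F was set against that of strain A in gibel carp (Carassius gibelio), a farmed cyprinid fish, with both strains fed a rapeseed meal diet and liver taken 8 hours after the last feeding. Each strain was represented by 1 library on rapeseed, and the other libraries of the series, strain F and strain A on a fishmeal diet, served to look up the same transcripts. The labels give no age or sex and no number of fish per library, so a library may be 1 fish or a pool. The levels came as 1 value for each of 56011 gene IDs. Of these, 38859 (69.4%) had a mean of 1 or more over the 2 rapeseed libraries and form the comparison, while 17152 fell under that limit. Just inside the limit, 2045 IDs had a mean of 1 to 1.1, and just outside it 1933 had a mean of 0.9 to 1.

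Gibel carp is polyploid and can reproduce by gynogenesis, in which the egg develops without a genetic contribution from the sperm, so that strains can be kept as lineages. Rapeseed meal is a plant protein source that replaces fishmeal in carp feed and brings with it fibre, phytate and glucosinolate products that the liver handles. The liver also makes most of the proteins of blood plasma, and a small number of transcripts usually dominates its RNA.

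Each ID joins a c number and a g number, as assemblers that work without a genome write them. All IDs under 1 c number are treated as 1 component, a cluster of related assembled sequences that may hold parts, copies or variants of 1 gene. The files do not pair IDs with gene names, and 0 IDs matched the RefSeq gene table for this species. Liver markers could therefore not be checked, no function is given for any ID, and no sequence is shown.

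The values behave as FPKM, a read level scaled for transcript length and library size, times 1 further factor for each library that can be read from the steps between low values. The factor was 1.07 in strain F and 1.34 in strain A on rapeseed. It lowers every log2 ratio of strain F over strain A by 0.32. The deposited scale put the median log2 ratio of 6511 well-expressed IDs (mean level 10 or more, above 0 in both) at -0.01. Folds are differences of log2(value + 1), strain F minus strain A, which understate the change of low IDs. With 1 library per strain no difference has a replicate check, so IDs past 2-fold are counted and no p-value is given.

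On rapeseed 47839 IDs were above 0 in strain F and 44906 in strain A. Both libraries held 40241 of them, 7598 were above 0 in strain F alone, 4665 in strain A alone and 3507 in neither. The absolute depth is unknown. With the factors divided out, low values clustered where 1 read in strain F stood for 0.973 times the level of 1 read in strain A, so the 2 libraries were of similar depth. That cluster was sought only near a ratio of 1. The strain F fishmeal library stood apart, with 36996 IDs listed at 0 against 8172 to 11105 in the other libraries. Values taken from it carry a larger counting error.

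Of the 38859 IDs, 5003 (12.9%) stood at least 2-fold higher in strain F and 4816 (12.4%) at least 2-fold lower. The numbers were close to even, and the median log2 fold was 0.04 with quartiles of -0.45 and 0.49. Differences of 4-fold or more were found in 1721 IDs higher and 1539 lower, and at least 8-fold differences in 289 and 271. The balance depended on the scale. With the library factors divided out, 6078 IDs were higher and 3708 lower, so that 62.1% of the 2-fold IDs were higher in strain F in place of 51.0%, and the median log2 fold was 0.27.

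On the deposited scale the most abundant transcripts lay lower in strain F than in strain A on rapeseed. Among the 204 IDs of mean level 1000 or more, 2 (0.98%) were 2-fold higher and 27 (13.2%) were 2-fold lower, and 182 of the 204 had a fold below 0. Their median level was 1839 FPKM in strain F and 2677 FPKM in strain A, with a median log2 fold of -0.43. Dividing out the factors left 3 higher and 21 lower, with a median of -0.10 and 130 of 204 below 0. The excess of 2-fold lower IDs in this class was thus present on both scales. How far the class median lay from 0 depended on the factors, which move all IDs alike. Its place under the median of level 10 to 100 did not. These medians were -0.43 against 0.02 as deposited, and -0.10 against 0.32 with the factors divided out.

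At level 100 to 1000, 40 IDs (4.83%) of 828 were higher and 81 (9.78%) lower, with a median log2 fold of -0.15. This split turned to 62 higher and 48 lower with the factors divided out. At level 10 to 100 the same happened, from 350 (6.3%) higher and 399 (7.19%) lower of 5552 IDs to 595 and 265. At level 1 to 10, 4611 (14.3%) of 32275 IDs were higher and 4309 (13.4%) lower, and 5418 and 3374 without the factors. Which strain has more IDs past 2-fold between levels of 10 and 1000 is therefore set by the scale, and the files do not say which scale fits the RNA content of the livers.

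**Figure D1:**
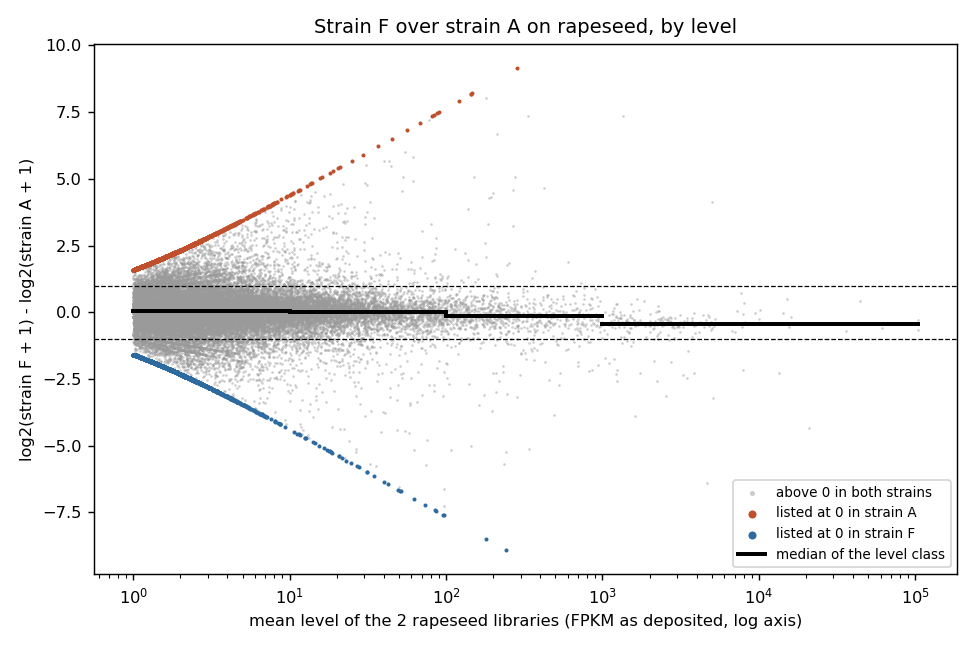
Each point is 1 of 38859 IDs, with its mean level over the 2 rapeseed libraries (FPKM, log axis) and its log2 fold of strain F over strain A. Dashed lines mark 2-fold, black bars the median of each level class (0.04, 0.02, -0.15 and -0.43 from low to high), and the coloured edges are IDs listed at 0 in 1 strain.

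The distance between the quartiles of the log2 fold was largest at level 1 to 10, while the SD over IDs was largest at level 100 to 1000, at 1.31, against 1.05 to 1.09 in the other classes. From the lowest level class up, the quartiles were -0.48 and 0.54, then -0.31 and 0.33, then -0.47 and 0.22, and -0.65 and -0.23 at level 1000 or more. The share past 2-fold was 27.6% in the lowest class and 13.5%, 14.6% and 14.2% in the classes above. In the lowest class many values rest on few reads. Ratios of strain F to strain A, factors divided out, were set against 9 ratios of whole numbers up to 4. A window reached 0.03 to either side on the log2 scale. All windows were first moved by -0.04, the most frequent log2 ratio near a ratio of 1 among IDs of level 1 to 2. The shift was thus fitted to the IDs of that level. Among 11905 IDs of level 1 to 2 that were above 0 in both strains, 43.5% lay in a window. The windows around those ratios cover 12.3% of the log2 axis between -2.2 and 2.2. The share was 31.2% for levels of 2 to 3, 16.4% for levels of 3 to 10 and 11.3% for levels of 10 to 100, where whole reads no longer show. How much of the 2-fold count at level 1 to 10 is counting error was not tested.

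**Figure D2:**
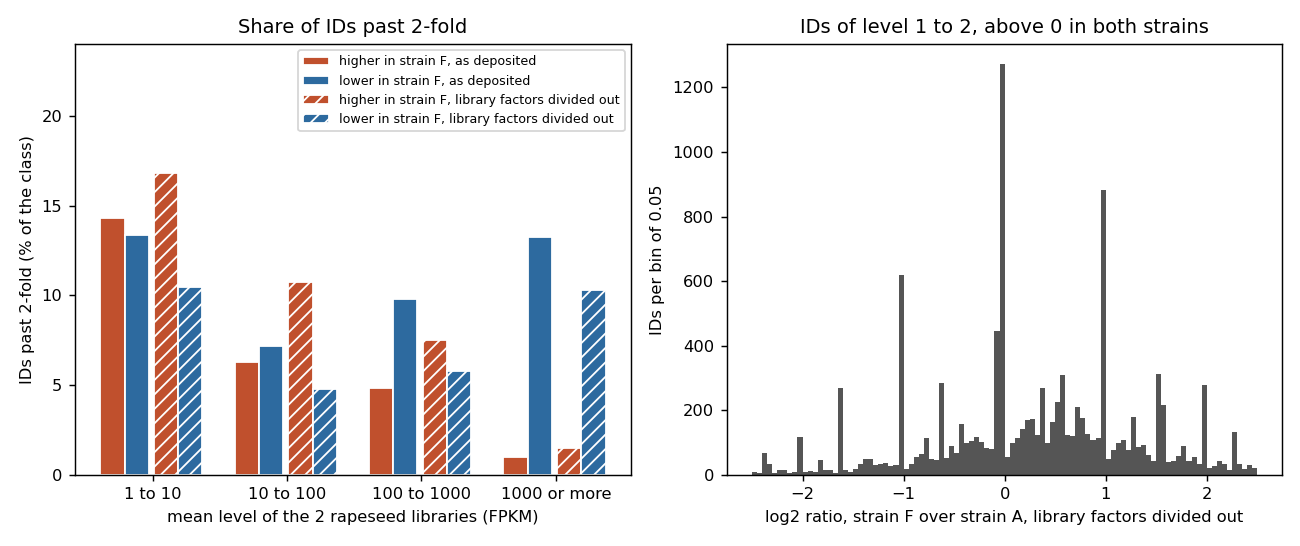
Left, the share of IDs in each level class that were at least 2-fold higher (first bar of each pair) or lower (second bar) in strain F, as deposited and with the library factors divided out (hatched); at level 1000 or more the lower IDs lead on both scales. Right, the number of IDs of level 1 to 2 by log2 ratio of strain F over strain A, with spikes near -1, 0 and 1 where 1 library has a whole multiple of the reads of the other.

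For scale, the same IDs were compared between the deep libraries with the factors divided out. At level 10 to 100, 15.5% of IDs stood 2-fold apart between strain F and strain A on rapeseed, 11.6% between rapeseed and fishmeal within strain A, and 17.2% between strain F on rapeseed and strain A on fishmeal. At level 100 to 1000 the shares were 13.3%, 11.7% and 17.9%, and at level 1000 or more 11.8%, 10.8% and 9.80%, in the same order. At level 1 to 10 they were 27.2%, 16.6% and 26.3%. The 2-fold IDs of level 1000 or more split as 3 higher and 21 lower in strain F against strain A on rapeseed. For strain A, 22 were higher and 0 lower on rapeseed than on fishmeal. For strain F on rapeseed against strain A on fishmeal, 12 were higher and 8 lower. These pairs share libraries, each has 1 library a side, and the IDs were kept and classed by the rapeseed libraries alone.

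Strain F had less of its summed level in the top class. The values of all IDs summed to 1.29e+06 FPKM in strain F and 1.65e+06 FPKM in strain A. IDs of mean level 1000 or more held 62.8% of the sum in strain F and 69.2% in strain A. These shares are the same on either scale. The sums themselves depend on the factors, without which they were 1.21e+06 in strain F and 1.24e+06 in strain A. IDs 2-fold lower in strain F as deposited held 3.81% of the sum in strain F and 14.7% in strain A, and IDs 2-fold higher held 4.79% in strain F and 0.559% in strain A. The direction of both contrasts follows from how the IDs were chosen. The 27 lower IDs of level 1000 or more alone held 2.27% of the sum in strain F and 9.93% in strain A. IDs within 2-fold of each other held 90.6% of the sum in strain F and 84.3% in strain A.

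The ranking of abundant transcripts was largely common to the strains. Of the 10 most abundant IDs of each library 8 were shared, of the 100 most abundant 82 were shared and of the 1000 most abundant 868. Across the 1032 IDs of level 100 or more, log2 levels of the strains had a Pearson r of 0.77 and levels a Spearman rho of 0.81. Across all 38859 the values were 0.79 and 0.54. These correlations run across IDs, which share their libraries and are not replicates.

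The 2 IDs of highest mean level on each side of a fold of 0 differed by less than 2-fold. c29002_g1 stood at 80325 FPKM in strain F and 128483 FPKM in strain A (log2 fold -0.68), and c33686_g1 at 94230 FPKM in strain F and 114029 FPKM in strain A (log2 fold -0.28). With the factors divided out the fold of c33686_g1 turned to 0.05 and that of c29002_g1 was -0.36, so c29002_g1 kept its direction and c33686_g1 did not. c26954_g1 stood at 50725 FPKM in strain F and 37901 FPKM in strain A (log2 fold 0.42), and c35442_g1 at 17697 FPKM in strain F and 12549 FPKM in strain A (log2 fold 0.50). On fishmeal both of these had lower values in strain F as deposited, at 23485 FPKM against 27666 FPKM in strain A for c26954_g1 and at 10060 FPKM against 10276 FPKM in strain A for c35442_g1. The fishmeal factors, 0.705 in strain F and 0.993 in strain A, set that direction, and dividing them out gave log2 folds of 0.26 for c26954_g1 and 0.46 for c35442_g1.

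The largest lower folds at level 1000 or more belonged to transcripts that are among the most abundant of strain A. A large lower fold together with a mean of 1000 or more requires a high level in strain A, so this follows largely from the choice. c21606_g1 ranked 5 in strain A on rapeseed, at 39896 FPKM, and 96 in strain F, at 1946 FPKM. It was 20.5 times lower in strain F (log2 fold -4.36). On fishmeal it stood at 1161 FPKM in strain F and 6674 FPKM in strain A, so the strain A rapeseed library held by far the highest of its 4 values. c21365_g1 ranked 19 in strain A on rapeseed, at 9168 FPKM, against rank 979 and 107 FPKM in strain F, and was 85.8 times lower there (log2 fold -6.41). On fishmeal it was listed at 0 in strain F and stood at 3409 FPKM in strain A. Both strain F libraries lay under both strain A libraries for either ID.

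The 2 higher IDs of this class were the 2-fold higher ones. c27973_g1 ranked 12 in strain F on rapeseed, at 9468 FPKM, against rank 332 and 546 FPKM in strain A, 17.3 times higher in strain F (log2 fold 4.11). c36017_g1 stood at 2675 FPKM in strain F and 15.2 FPKM in strain A on rapeseed, 176 times higher in strain F (log2 fold 7.37). On fishmeal c27973_g1 had 6103 FPKM in strain F and 657 FPKM in strain A, and c36017_g1 had 2366 FPKM in strain F and 18 FPKM in strain A. For each ID both strain F libraries lay above both strain A libraries.

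Among IDs above 0 in both strains, c36017_g1 and 3 others had the largest folds in their direction, and those 3 had levels under 1 FPKM in the lower strain. c26076_g1 stood at 361 FPKM in strain F and 0.374 FPKM in strain A on rapeseed (log2 fold 8.04), and at 212 FPKM in strain F and 0.139 FPKM in strain A on fishmeal. c32192_g2 went the other way, at 0.278 FPKM in strain F and 193 FPKM in strain A on rapeseed (log2 fold -7.25), and listed at 0 in strain F and at 158 FPKM in strain A on fishmeal. c31131_g1 stood at 0.952 FPKM in strain F and 193 FPKM in strain A on rapeseed (log2 fold -6.64). On fishmeal it was listed at 0 in strain F and at 7.99 FPKM in strain A, so its high level was that of a single library. These low values can rest on few reads, and the ratios are correspondingly uncertain. Other IDs of the 2 lower components lay within 2-fold on rapeseed. c32192_g3 stood at 27.2 FPKM in strain F and 32.0 FPKM in strain A, and c31131_g2 at 196 and 337 FPKM. The sums were 44.8 FPKM in strain F and 237 FPKM in strain A for c32192, and 307 and 703 FPKM for c31131.

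**Figure D3:**
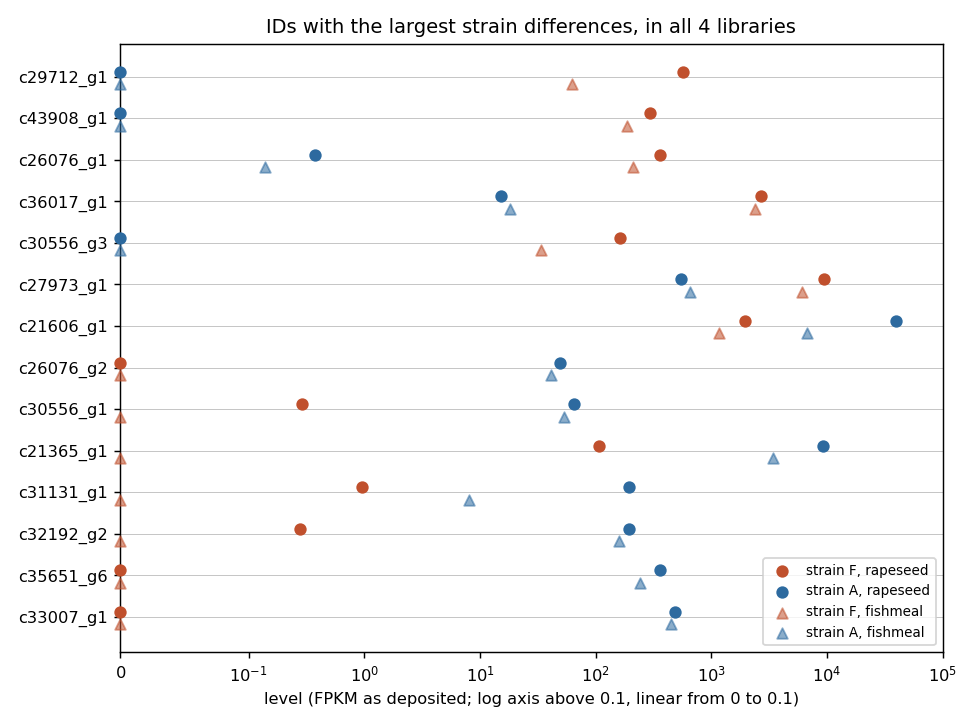
Levels in all 4 libraries (FPKM, log axis above 0.1) of the IDs named for the largest strain difference at level 100 or more, among IDs above 0 in both strains, among IDs listed at 0 in 1 strain, or in mixed components. Strain F lies right of strain A in the 6 upper IDs and left of it in the others, and the fishmeal values (triangles) lie on the same side.

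IDs listed at 0 in 1 strain made up much of the count at low levels. Of the 5003 IDs 2-fold higher in strain F, 2438 (48.7%) were listed at 0 in strain A, and of the 4816 lower, 2191 (45.5%) were listed at 0 in strain F. At level 10 to 100 the shares were 8.29% and 9.27%, at level 100 to 1000 they were 5 of 40 and 2 of 81, and at level 1000 or more there was none. The limit on the mean and the pseudocount make any kept ID listed at 0 in 1 strain count as 2-fold. The 2438 and 2191 are therefore all such IDs among the 38859 kept, and their overlap with the 2-fold IDs was fixed by the rule. A listed 0 is the table's own value and may be a failed estimate, so no fold against it is given for a named ID. The counts, medians, SDs, correlations and plotted points do include such IDs, by log2(value + 1).

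The share of IDs that met a 0 fell steeply with the level of the ID. Of 13208 IDs at 1 to 2 FPKM in strain F, 3004 (22.7%) were listed at 0 in strain A, and of 11653 IDs at that level in strain A, 1736 (14.9%) were listed at 0 in strain F. At 5 to 10 FPKM the shares were 5.13% of IDs seen in strain F and 5.89% of IDs seen in strain A. At 10 FPKM or more, 79 (1.19%) of 6632 IDs seen in strain F were listed at 0 in strain A, and 89 (1.37%) of 6485 IDs seen in strain A were listed at 0 in strain F. At 100 FPKM or more the numbers were 11 of 1027 and 10 of 1051. With the factors divided out, 75 IDs at 10 or more in strain F and 56 in strain A met a 0, since dividing lowers the levels of strain A by more.

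**Figure D4:**
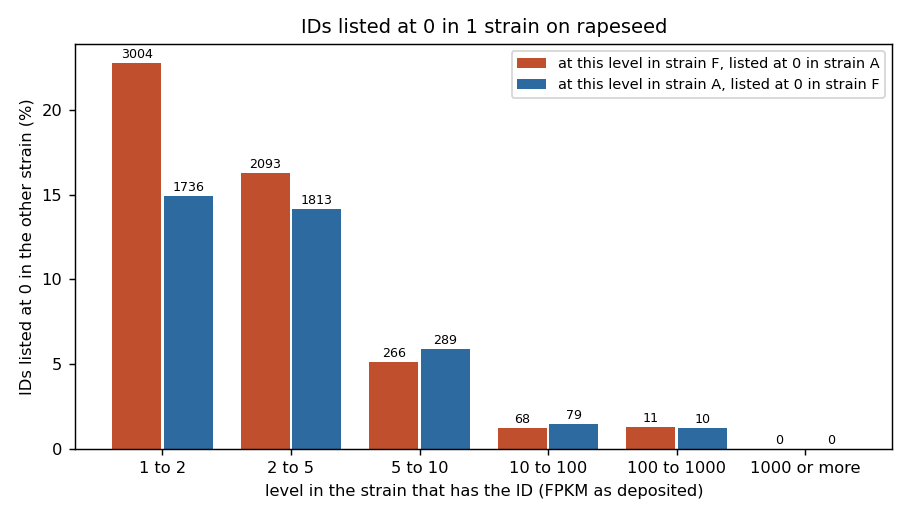
Share of IDs at each level in 1 strain on rapeseed that were listed at 0 in the other; numbers above the bars are counts of IDs. The share drops from 22.7% and 14.9% at 1 to 2 FPKM to between 1.21% and 1.45% at 10 to 1000 FPKM, and to 0 at 1000 or more.

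The fishmeal libraries, which played no part in choosing these IDs, were then read for the same IDs. Of the 79 IDs listed at 0 in strain A on rapeseed, 66 (83.5%) were also listed at 0 in strain A on fishmeal, where 1.87% of all IDs at that level in strain F are. The other 13 reached at most 7.16 FPKM there. In strain F on fishmeal 48 of the 79 were above 0. The 31 at 0 (39.2%) compare with 7.81% of all IDs of that level in strain F. Of the 89 IDs listed at 0 in strain F on rapeseed, 87 (97.8%) were listed at 0 in strain F on fishmeal, against 11.5% of all IDs at that level in strain A. In strain A on fishmeal 86 of the 89 were above 0, with a median of 15.0 FPKM, and the 3 at 0 compare with 0.154% of all IDs at that level in strain A. At a lower limit of 2 FPKM, 1393 of the 2438 IDs listed at 0 in strain A on rapeseed (57.1%) were so on fishmeal, against 8.97% of all IDs at that level in strain F. Of the 2191 listed at 0 in strain F on rapeseed, 2162 (98.7%) were so on fishmeal, against 43.6% of all IDs at that level in strain A. With both fishmeal libraries read together, 194 of the 2438 had the rapeseed pattern, 972 the opposite one and 1199 were at 0 in both. Of the 2191, 1737 had the rapeseed pattern, 9 the opposite one and 425 were at 0 in both. For the 79 these numbers were 42, 7 and 24, and for the 89 they were 84, 0 and 3. The joint patterns were not counted over all IDs of these levels, so these numbers have no share to compare with. The strain F fishmeal library listed 36996 IDs at 0, so the counts of the 2 sides cannot be set against each other.

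The 2 most abundant IDs listed at 0 in strain A were c29712_g1 and c43908_g1. c29712_g1 had 567 FPKM in strain F on rapeseed and 62.5 FPKM in strain F on fishmeal, and c43908_g1 had 293 and 186 FPKM in those libraries. Both had a listed 0 in either strain A library. On the other side, c33007_g1 had 481 FPKM in strain A on rapeseed and 447 FPKM in strain A on fishmeal, and c35651_g6 had 362 and 242 FPKM in those libraries. Strain F had a listed 0 for both in either library.

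The leading IDs of mean level 10 to 100 had a listed 0 in both libraries of 1 strain. Choosing the largest fold within a level class favours IDs at 0 in 1 rapeseed library and with a mean near the upper limit. Their rapeseed values follow largely from that choice, in which the fishmeal values played no part. c33847_g3 had 180 FPKM in strain F on rapeseed and 46.5 FPKM on fishmeal, and c27348_g2 had 176 and 42.1 FPKM. c44620_g1 had 195 FPKM in strain A on rapeseed and 159 FPKM on fishmeal, and c38470_g3 had 192 and 168 FPKM. At mean level 1 to 10 the leading IDs were c37288_g3, with 19.3 FPKM in strain F on rapeseed and 20.4 FPKM on fishmeal, and c34151_g6, with 19.1 and 32.3 FPKM, both listed at 0 in strain A. Those lower in strain F were c30165_g3, with 18.7 FPKM in strain A on rapeseed and 34.7 FPKM on fishmeal, and c18327_g1, with 17.5 and 1.85 FPKM, both listed at 0 in strain F. The component of c34151_g6 did not differ as a whole on rapeseed, with a sum of 102 FPKM in strain F and 95.6 FPKM in strain A. The sums of c27348, c37288, c38470 and c30165 lay past 2-fold on the side of the named ID.

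Of the IDs listed at 0 in 1 strain, 41 of 79 (strain A) and 48 of 89 (strain F) had a component mate above 0 there. Of the 79 IDs listed at 0 in strain A, 51 (64.6%) belonged to components of 2 or more IDs, as did 50.5% of all 6632 IDs of that level in strain F. In 36 of the 51 another ID of the component stood at 1 FPKM or more in strain A, and in 16 at 10 FPKM or more. Of the 89 IDs listed at 0 in strain F, 53 (59.6%) belonged to such components, as did 50.4% of all 6485. In 45 of the 53 another ID stood at 1 FPKM or more in strain F, and in 28 at 10 FPKM or more. Neither share of components was tested against the rest. How often other IDs of that level have a mate above 0 was not counted, so the mate counts have no share to compare with.

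Adding up each component gives the strain difference of the whole, with the chosen ID included. The 79 IDs lay in 69 components, of which 33 were at 0 in strain A as a whole. A component of 1 ID is at 0 there by the choice of its ID. Of the 41 components of 2 or more IDs, 5 were at 0 in strain A. Among the 41 components of 2 or more IDs, the sum stayed 2-fold higher in strain F in 28, lay within 2-fold in 12 and was 2-fold lower in 1. The 89 IDs lay in 81 components, of which 40 were at 0 in strain F, among them 4 of the 45 components of 2 or more IDs. Among their 45 components of 2 or more IDs the sum was 2-fold lower in strain F in 35, within 2-fold in 9 and 2-fold higher in 1. The chosen ID pulls each sum to its own side, and sums without it were not made. Over all 3293 components of 2 or more IDs and a mean sum of 10 or more, 5.92% were 2-fold higher and 6.38% lower. The component of c33847_g3 is an example of a sum within 2-fold. It came to 363 FPKM in strain F and 261 FPKM in strain A, since c33847_g1 stood at 128 FPKM in strain F and 189 FPKM in strain A. The component of c35651_g6 summed to 713 FPKM in strain F and 1105 FPKM in strain A, with c35651_g2 at 522 FPKM in strain F and 494 FPKM in strain A. In contrast, the component of c33007_g1, with 10 IDs, summed to 112 FPKM in strain F and 995 FPKM in strain A.

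Over all components the split was close to that of single IDs on either scale. The 56011 IDs formed 41679 components, 32588 of 1 ID and 9091 of 2 or more, and the largest held 16 IDs. Of 29795 components with a mean sum of 1 or more, 3868 (13%) were 2-fold higher in strain F and 3669 (12.3%) 2-fold lower. Dividing out the factors gave 4779 higher components and 2801 lower ones. At a mean sum of 100 or more, 41 of 1037 were higher and 99 lower, and 72 and 66 without the factors. Components of 1 ID had 27.6% past 2-fold and components of 4 or more IDs 15.6%, but their median sums were 2.31 and 18.9 FPKM. At a mean sum of 10 or more the shares were 11.4% and 12.1%.

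The 2 components of 2 or more kept IDs with the largest higher sums were c6838 and c36017. c6838 summed to 401 FPKM in strain F on rapeseed and had a listed 0 in either strain A library, and its leading ID c6838_g2 stood at 288 FPKM in strain F on rapeseed and 148 FPKM on fishmeal. c36017 summed to 2677 FPKM in strain F and 17.6 FPKM in strain A, nearly all of it c36017_g1. The largest lower differences were those of c9151 and c33204. c9151 had a listed 0 in either strain F library and summed to 173 FPKM in strain A on rapeseed, led by c9151_g2 at 170 FPKM there and 94.5 FPKM on fishmeal. c33204 summed to 0.032 FPKM in strain F and 118 FPKM in strain A, with c33204_g1 at 55 FPKM and c33204_g2 at 62.6 FPKM in strain A. In c33204 both IDs were thus low in strain F, and in c9151 the whole component was at 0.

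IDs of 1 component tended to differ alike. Of 6237 components with 2 or more kept IDs, 3778 had no ID past 2-fold, 226 had all their kept IDs higher in strain F and 181 had all lower. In 986 some were higher and none lower, in 883 some were lower and none higher, and 183 (2.93%) held both kinds. At mean level 10 or more, 786 components had 2 or more IDs, of which 28 had all higher, 32 all lower and 12 held both. There, 41.0% of the component mates of a 2-fold higher ID were themselves 2-fold higher and 11% were 2-fold lower, where 7.92% and 10.1% of all 1756 such IDs were. Of the mates of a 2-fold lower ID 53.1% were lower and 6.79% higher. Each pair of mates was counted from both sides, and mates can share reads, so they are not independent.

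**Figure D5:**
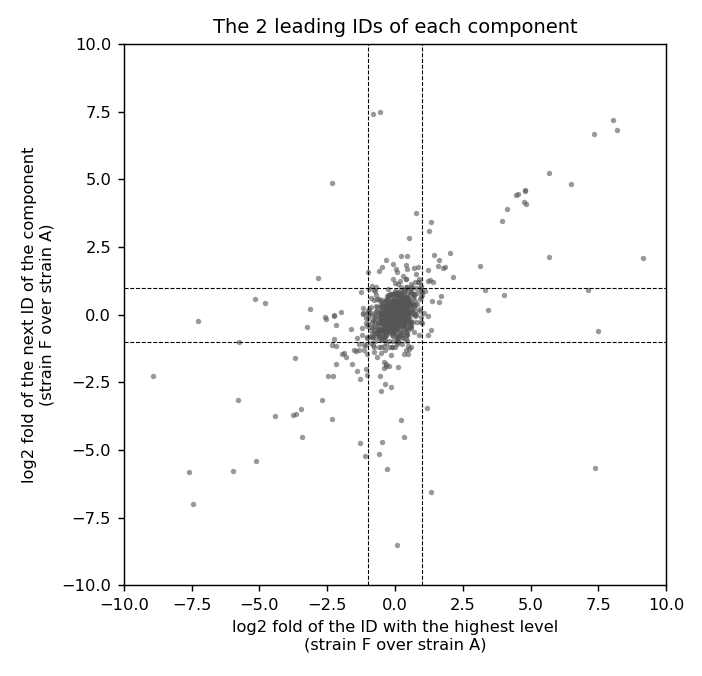
Each point is 1 of 786 components with 2 or more IDs of mean level 10 or more, with the log2 fold of strain F over strain A of its most abundant ID (across) and of the next (up); dashed lines mark 2-fold. Both were higher in 29 components, both lower in 37, and in 5 they lay past 2-fold on opposite sides.

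In these 786 components the folds of the 2 leading IDs had a Pearson r of 0.53 and a Spearman rho of 0.44 across components, and a median absolute difference of 0.40 on the log2 scale. The widest split within a component was that of c26076. Its ID c26076_g1 was the one with 361 FPKM in strain F described above, while c26076_g2 had a listed 0 in either strain F library and stood at 49.0 FPKM in strain A on rapeseed and 41.3 FPKM on fishmeal. The third ID, c26076_g3, stood at 156 FPKM in strain F and 0.067 FPKM in strain A on rapeseed. In c30556, c30556_g3 had 163 FPKM in strain F and was listed at 0 in strain A on rapeseed, while c30556_g1 had 0.289 FPKM in strain F and 64.8 FPKM in strain A. On fishmeal c30556_g3 had 33.6 FPKM in strain F and a listed 0 in strain A, and c30556_g1 a listed 0 in strain F and 53.3 FPKM in strain A. The c26076 sum was 517 FPKM in strain F and 49.5 FPKM in strain A, and the c30556 sum 268 FPKM in strain F and 123 FPKM in strain A.

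The share of IDs past 2-fold also varied with the c number itself. Among kept IDs of level 1 to 3 it was 38.9% for c numbers under 10000, 32.5% from 10000 to 19999, 20.9% from 20000 to 29999, 24.6% from 30000 to 39999 and 50.2% from 40000 up. At level 10 or more it was 20 of 45 IDs under 10000, and then 25.4%, 17% and 11.7%, and 7 of 18 IDs from 40000 up. None of the kept IDs from 40000 up had a component mate, against 67.5% of IDs from 30000 to 39999. The sources used here do not say what sets the c number, and the length of the sequences, which bears on the reads behind a level, is not known.

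On fishmeal, in libraries that the rapeseed comparison did not use, many of the abundant IDs differed between the strains in the same direction. At level 100 or more, 42 (4.07%) of 1032 IDs were higher in strain F on rapeseed and 108 (10.5%) lower. Of the 42, 25 were also 2-fold higher on fishmeal and 2 were lower, where 4.55% of all 1032 IDs were higher and 20% lower. Of the 108 lower IDs 68 (63.0%) were also lower on fishmeal and 3 were higher. With the factors divided out, 40 of 65 and 44 of 69 went the same way, against 9.01% higher and 8.91% lower among all. At level 10 to 100, 167 of 350 (47.7%) and 286 of 399 (71.7%) went the same way, against 7.82% and 27.3% of all 5552. With the factors divided out, 286 of 595 and 189 of 265 did, against 15.2% and 18.4% of all.

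At level 1 to 10 most of the 2-fold IDs were listed at 0 in strain F on fishmeal, which limits what their fishmeal folds can show. Of the 4611 IDs higher in strain F on rapeseed, 856 (18.6%) were higher and 1395 (30.3%) lower on fishmeal, where 10.8% of all 32275 IDs were higher and 45.6% lower. The shallow strain F fishmeal library had a listed 0 for 3509 of the 4611. Of the 4309 lower IDs 2941 (68.3%) were lower on fishmeal, and 3932 were listed at 0 in that library. With the factors divided out, 1146 (21.2%) of 5418 higher IDs were higher on fishmeal and 1722 (31.8%) lower. Of 3374 lower IDs, 2339 (69.3%) were lower there. Among all IDs of this class 15.0% were then higher and 44.4% lower.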

How the data were processed

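Liver RNA of gibel carp was sequenced in 4 libraries, 1 per strain and diet. RNA was isolated with Trizol from flash-frozen tissue for Illumina libraries, per the labels' protocols. The submitters' processing notes name RSEM 1.2.17 and Bowtie 1.0.1; the sources used here give no reference sequence. The deposited values are FPKM by their behaviour, times 1 factor per library. All distinct low values (under 3) lay within 0.0006 of a multiple of 1 step, which gave the factor. The deposited scale was kept for the main values.

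Computed here, with Python 3.11.15, numpy 2.4.6 and pandas 2.3.3, were differences of log2(value + 1) between the rapeseed libraries over IDs with a mean of 1 or more, counts past 2-fold, counts of IDs at 0, and sums per component. Simulated data were used to test the library factors and the calling of large folds in well-expressed IDs with little noise. Low levels, IDs at 0, whole-number ratios and the component results were not simulated. The simulation therefore lends those results no support. Scale alternatives kept the IDs and level classes of the deposited scale. Other pseudocounts, filters and scales were tried. IDs named are at most the 2 largest higher and the 2 largest lower of each class described, the 2 of highest level on each side of 0, and the 2 widest mixed components. Other members of their components were named after their values were seen. Members, classes and lists were chosen with earlier results of these data known.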

Additional observations from a re-analysis of the deposited data

How the results depend on the processing

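No paired analysis was possible because each strain has 1 library on rapeseed. Centring the median log2 ratio at 0 and counting values under 0.1 as absent kept every count within 1.5 times. With a pseudocount of 5, 905 IDs were higher and 930 lower in strain F (598 and 534 at level 1 to 10), 725 and 726 summed components were, and 26 components held both kinds. Without a filter on level 8102 IDs and 6198 components were higher and 313 components were mixed. At a mean of 5 or more, 803 IDs were higher and 873 lower, 697 and 734 components were, and 27 were mixed. A pseudocount of 0.1 gave 7094 IDs higher and 6783 lower in strain F, and 353 mixed components. With the factors divided out, the counts were 62 higher and 48 lower at level 100 to 1000, 595 and 265 at level 10 to 100, and 56 IDs at 10 or more in strain A met a 0 in strain F. With equal sums, they were 71 and 46, and 651 and 254. The fold of c33686_g1 turned to 0.047 and 0.083 on those scales. The other 11 IDs named by rule and above 0 in both strains kept their direction under the pseudocounts and scales run. Component mates named beside them were not run. Ratios of whole numbers were most frequent at level 1 to 2, and what depth adds to the counts under level 10 was not tested.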
